A study of Homo sapiens with 30 samples.

Results

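Interferon-stimulated genes are the genes whose transcription rises when a cell senses interferon, and 51 of them were followed here through depletion of NFBD1, depletion of p53 and ionizing radiation in U2OS cells, a human osteosarcoma line. A gene was followed through the array probes that the platform annotation assigns to its symbol or an older alias (DDX58 for RIGI), provided that a probe had a detection p under 0.01 on at least 3 arrays. Of the 51 genes, 49 had a named probe and 44 passed this rule, among 12667 genes of all kinds that passed it. The 77 named probes of the 49 genes included 62 that passed. CMPK2, EPSTI1, OAS2, RSAD2 and XAF1 had probes that did not reach the rule, and STAT2 and HERC6 were not analysed here.

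Retroviral infection delivered short hairpin RNAs (shRNAs) to the cells, which 2 days later received 5 Gy from a caesium source or a mock treatment and gave RNA 4 h after that for Illumina bead arrays. In the first experiment, 24 arrays covered a control shRNA (pSIREN neg), a hairpin against NFBD1 (pSIREN NFBD1sh b, called hairpin b below), an shRNA against p53 (pSIREN p53), and hairpin b together with the p53 shRNA, each at 0 and 5 Gy with 3 arrays a group. In the second experiment, 6 arrays compared another hairpin against NFBD1 (pSIREN NFBD1a, called the second hairpin below) with its own pSIREN neg control at 0 Gy, again with 3 arrays a group. NFBD1, also called MDC1, is the scaffold protein that gathers repair and signalling factors at DNA double-strand breaks, and p53 is the transcription factor that answers DNA damage. The labels name 1 cell line and no clones, and do not say whether arrays with different replicate numbers came from separate cultures, so the p-values below measure the spread between these arrays, which may be technical. In bulk RNA of this kind, fewer cells that use a gene and less RNA of it per cell cannot be told apart.

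In the interferon pathway, secreted interferons bind receptors at the cell surface, JAK kinases phosphorylate STAT proteins, and STATs with IRF9 or alone enter the nucleus. Type I and III interferons act mainly through the interferon-stimulated response element, and interferon gamma through the gamma-activated site, in promoters of their target genes. Many of these genes block viruses, present antigens or sense foreign RNA and DNA, and a basal level is found in cells that no interferon was given to. In cells where this route works, damaged DNA in the cytoplasm can start the same programme through cGAS and STING. Whether it works in these U2OS cells was not tested. U2OS cells have been used widely in work on the DNA damage response.

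The promoters of 6 genes that the results below turn on are shown because they carry these elements at different spacings. RefSeq promoters on GRCh38.p14 were matched by symbol for 43 of the 51 genes, as windows from 250 bases before to 50 after the start. GBP2, IFIT2, IRF7, MX2, OAS2, OASL, TRIM22 and USP18 were not matched. The core of the interferon-stimulated response element was searched on both strands as GAAA, 2 bases of any kind and GAAA again, and stood in the windows of 28 of the 43 genes, or 65.1%, against 4.38% of the 27305 genes in the table. The gamma-activated site, searched as TTCNNNGAA, which reads the same on both strands, stood in the windows of 14 of the 43, or 32.6%, against 9.38% of all genes. A match is a run of letters and not a measured binding site, and the 2 motifs can overlap. The 250 bases before the start follow, 5′ to 3′ on the strand of the gene, for IFIT1 (chr10:89392373-89392622, plus strand), IFIT3 (chr10:89327747-89327996, plus strand), IFI44 (chr1:78649539-78649788, plus strand), IFI27 (chr14:94110486-94110735, plus strand), ISG20 (chr15:88638766-88639015, plus strand) and IRF1 (chr5:132490774-132491023, minus strand), with the matches to either motif in capitals.
IFIT1: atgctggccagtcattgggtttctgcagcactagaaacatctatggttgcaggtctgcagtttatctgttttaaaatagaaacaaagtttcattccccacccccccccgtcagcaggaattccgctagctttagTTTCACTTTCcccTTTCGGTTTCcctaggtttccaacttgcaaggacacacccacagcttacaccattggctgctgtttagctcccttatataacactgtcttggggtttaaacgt
IFIT3: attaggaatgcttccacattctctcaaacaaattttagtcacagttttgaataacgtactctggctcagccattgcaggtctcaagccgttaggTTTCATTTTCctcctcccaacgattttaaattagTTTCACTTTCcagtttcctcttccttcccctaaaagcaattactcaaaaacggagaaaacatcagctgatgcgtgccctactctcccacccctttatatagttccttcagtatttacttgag
IFI44: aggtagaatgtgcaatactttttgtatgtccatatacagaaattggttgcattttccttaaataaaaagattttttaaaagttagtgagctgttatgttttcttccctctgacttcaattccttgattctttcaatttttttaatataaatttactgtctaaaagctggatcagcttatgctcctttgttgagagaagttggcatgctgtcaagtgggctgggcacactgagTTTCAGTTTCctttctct
IFI27: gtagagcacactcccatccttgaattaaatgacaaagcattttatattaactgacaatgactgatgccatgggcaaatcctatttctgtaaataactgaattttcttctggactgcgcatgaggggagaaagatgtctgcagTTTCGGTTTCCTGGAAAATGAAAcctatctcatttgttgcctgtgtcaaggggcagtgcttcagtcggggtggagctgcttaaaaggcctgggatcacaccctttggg
ISG20: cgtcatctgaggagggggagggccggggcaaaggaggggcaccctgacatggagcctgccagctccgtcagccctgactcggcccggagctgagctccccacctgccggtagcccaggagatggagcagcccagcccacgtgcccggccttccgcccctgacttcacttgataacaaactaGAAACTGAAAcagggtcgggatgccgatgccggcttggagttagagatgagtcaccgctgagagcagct
IRF1: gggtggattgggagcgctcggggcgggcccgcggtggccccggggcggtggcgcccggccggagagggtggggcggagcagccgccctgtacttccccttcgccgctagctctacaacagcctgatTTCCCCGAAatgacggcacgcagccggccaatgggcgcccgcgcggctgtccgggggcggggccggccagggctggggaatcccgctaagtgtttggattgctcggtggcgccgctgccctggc
IFIT1, IFIT3 and IFI27 each held 2 matches to the response element in this stretch, and IFI44 and ISG20 held 1. In IFI27 the matches and a gamma-activated site overlapped, so they appear as 1 run of capitals. IRF1 held a gamma-activated site and no match to the response element.

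The 24 arrays of the first experiment detected 34.1% to 40.3% of their probes, and the 6 of the second 35.7% to 38.2%. Any pair of arrays of 1 experiment correlated at 0.9742 to 0.996 in log2 intensity over the probes kept. After normalization within each experiment, 12419 genes were tested in the first and 11040 in the second. The targeted transcript was lower wherever an NFBD1 hairpin was used. MDC1, the gene of NFBD1, had a log2 intensity at 0 Gy of 9.01 ± 0.28 (SD, n = 3) in the control shRNA group and 7.59 ± 0.48 in the hairpin b group, and at 8.65 ± 0.12 and 6.24 ± 0.08 with the second control and hairpin. The p53 transcript was not analysed here. CDKN1A, the cell cycle inhibitor that p53 switches on, was at 11.69 ± 0.36 with the control shRNA and 10.43 ± 0.09 with the p53 shRNA at 0 Gy, and at 13.41 ± 0.11 and 11.67 ± 0.29 at 5 Gy. Of 11 osteoblast or mesenchymal markers, 8 were detected on all 30 arrays, while SP7 and COL1A2 were detected on none. Of 12 blood cell markers with a probe, PTPRC, CD3E, ITGAM, SPI1, HBA1 and NKG7 were detected on 0 of 30 arrays, and CD68 was detected on 30, LYZ on 29, CD14 on 21, CD3D and MS4A1 on 14 each and HBB on 12. Of 7 epithelial and 7 neural markers, EPCAM, NEFL and STMN2 were detected on all 30 arrays, CDH1 on 28 and LHX1 on 19, and the other 9 on 0 to 7.

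The labels name no interferon treatment, and the 44 genes tested in the first experiment are those that the detection rule had let through. Of these, 36 were detected on all 24 arrays, among them ISG15, whose product is attached to proteins like ubiquitin, MX1, a GTPase that traps viral particles, and IFI6. Their levels ranged from array to array: ISG15 lay between 6.81 and 8.75 and MX1 between 6.01 and 6.72 in log2 intensity. OASL was detected on 5 of the 24 arrays, USP18 on 4, MX2 on 6 and IRF7 on 8, so changes of these 4 genes in the first experiment rest on signal at the level of the background. The second experiment tested 40 of the genes, without HERC5, IRF7, MX2 and SAMD9L, and detected 39 of them on all 6 arrays. The interferon genes themselves were at the level of the background: IFNA1, IFNA2, IFNB1, IFNE, IFNG, IFNK, IFNL1 and IFNL3 were detected on 0 of 30 arrays and IFNL2 on 3. The receptor genes IFNAR1, IFNAR2, IFNGR1, IFNGR2, IFNLR1 and IL10RB were detected on all 30.

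Irradiation was compared with mock irradiation within each shRNA treatment to ask which genes answer 5 Gy by 4 h. No interferon-stimulated gene passed an adjusted p of 0.05 (limma, Benjamini-Hochberg over all genes) in any of these 4 comparisons, fitted without a block. Over all genes, 0.588% were called in the control shRNA cells, 0.757% in those with hairpin b, 0.25% in p53-depleted cells and 0.201% in doubly depleted cells. At an unadjusted p under 0.05, 2 of the 44 genes passed in the control shRNA cells (3.67% of all genes), 7 in those with hairpin b (11.2%), 2 in p53-depleted cells (4.16%) and 2 in doubly depleted cells (3%). With the control shRNA the median change of the 44 genes was 0.07 on the log2 scale, beside 0 over all genes. The medians with hairpin b, the p53 shRNA and both shRNAs were 0.02, -0.01 and 0.08, beside -0.02, 0.01 and 0 over all genes. Higher at 5 Gy were 31, 23, 21 and 29 of the 44 genes in the 4 treatments, in the order above. Over all 12419 genes these counts were 6268, 5750, 6709 and 6303. Whether the set as a whole shifted was not tested. The calls of TRIM22 and SAMD9 with the chip or the replicate number as a block are given below.

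Averaged over the 4 shRNA treatments, with 12 arrays per dose, irradiation raised IRF1 and TRIM22 and lowered IFIT1, and 41 of the 44 genes did not pass. Over all genes 1.8% passed, beside 6.82% of the 44. IRF1 encodes the transcription factor that binds the promoters of many interferon-stimulated genes and is itself induced by interferon gamma. In the control shRNA group IRF1 was at 8.06, 7.88 and 7.97 at 0 Gy and 8.04, 8.14 and 8.33 at 5 Gy. With hairpin b it was at 7.77, 8.13 and 8.04 without and 8.47, 8.15 and 8.49 with irradiation. The ranges overlapped in the control shRNA cells and were apart in those with hairpin b. With the p53 shRNA IRF1 was at 7.93, 8.13 and 7.95 at 0 Gy and 8.07, 8.17 and 8.43 at 5 Gy. With both shRNAs it was at 7.93, 7.79 and 8.15 at 0 Gy and 8.32, 8.6 and 8.39 at 5 Gy. Every treatment had its higher mean at 5 Gy, and only with hairpin b and with both shRNAs were all 3 irradiated arrays above all 3 others. Of all 12419 genes, 662 and 429 were above in this way in these 2 treatments. The averaged change of IRF1 was 0.32 ± 0.07 (SE) on the log2 scale, a fold change of 1.25 with an adjusted p of 0.0105.

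IFIT1, whose protein binds foreign capped RNA and keeps it from being translated, was the member that fell. Its levels at 0 Gy were 8.28, 7.51 and 8.29 with the control shRNA and 8.1, 7.8 and 7.94 with hairpin b. At 5 Gy these were 7.77, 7.41 and 7.66, and 7.3, 7.06 and 7.64. In the cells with p53 shRNA, IFIT1 was at 7.76, 8.28 and 8.17 at 0 Gy and 7.58, 7.7 and 7.48 at 5 Gy. The irradiated arrays were lower in all 4 treatments on average, with overlap between single arrays in the control and in the cells with both shRNAs, where IFIT1 was at 8.39, 7.88 and 7.58 and then 7.96, 7.65 and 7.42. The averaged change was -0.45 ± 0.11 on the log2 scale with an adjusted p of 0.0334. A further IFIT1 probe fell by 0.14 on the log2 scale with an unadjusted p of 0.153, so the decrease was seen mainly on the brighter probe. IFIT1 lost its call when the probes were averaged, when no detection filter was used, and when any of 14 of the 24 arrays was left out, with an adjusted p of up to 0.0771 among the latter. The neighbours of IFIT1 in the same family, IFIT2, IFIT3 and IFIT5, did not pass.

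**Figure D1:**
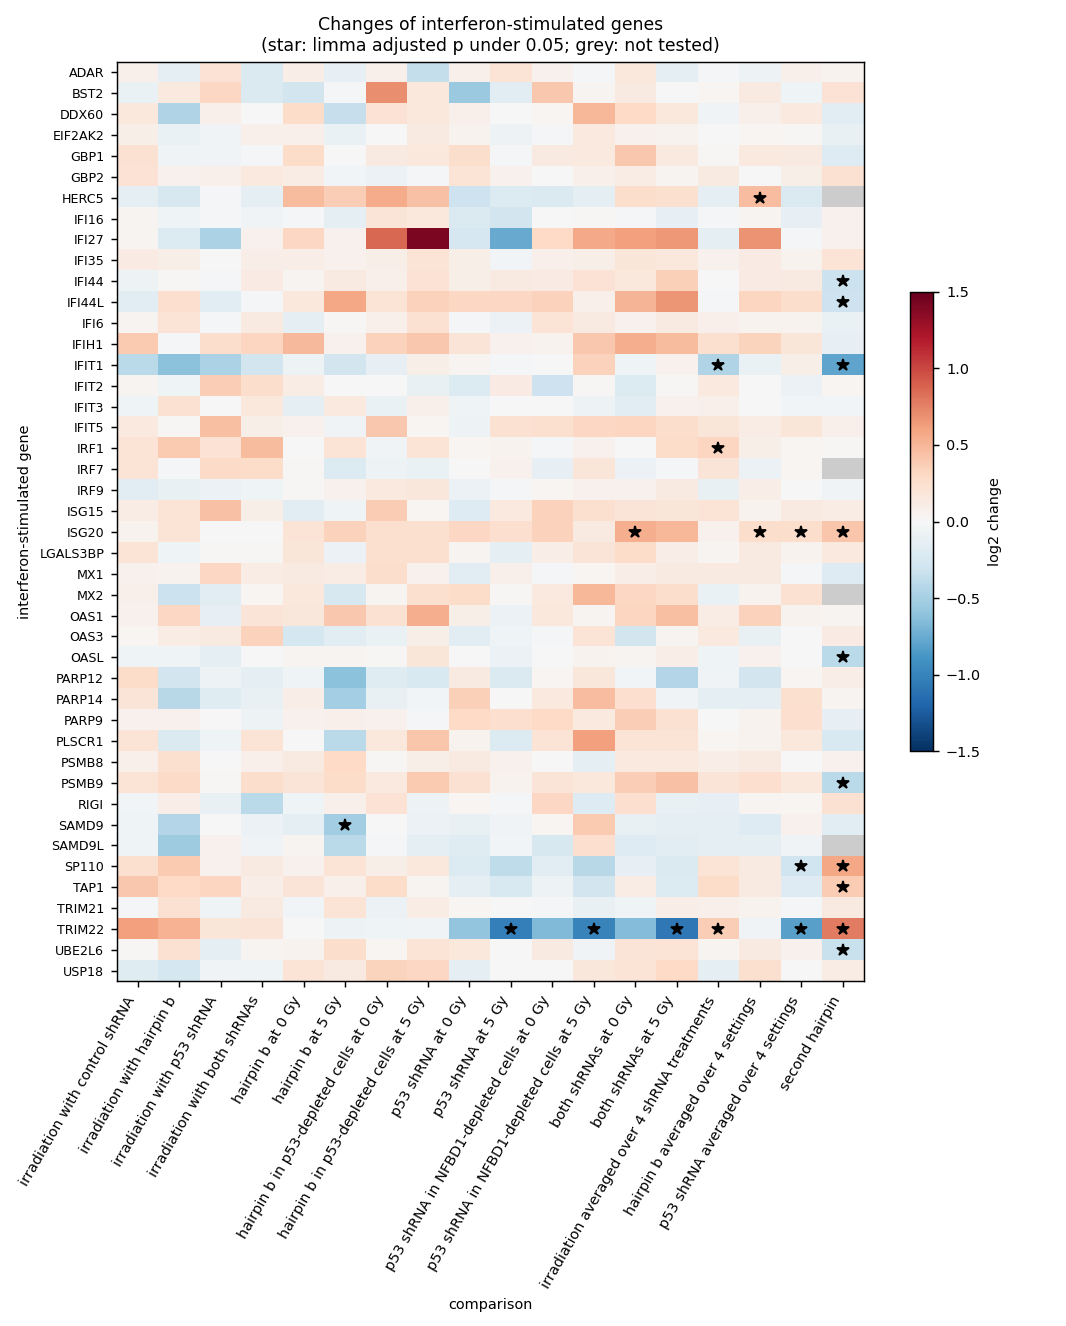
The log2 change of the 44 interferon-stimulated genes (rows) in 18 comparisons (columns), with red for higher and blue for lower, stars for a limma adjusted p under 0.05 and grey for genes not tested. Stars are few in the first experiment and gather on TRIM22 and ISG20, while the column of the second hairpin holds 10.

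TRIM22 had the most calls of any member: it rose with irradiation and fell with the p53 shRNA. It encodes a ubiquitin ligase that restricts several viruses, and it is known both as an interferon-stimulated gene and as a target that p53 induces directly. With the control shRNA TRIM22 was at 7.13, 7.05 and 6.84 at 0 Gy and 7.88, 7.48 and 7.46 at 5 Gy. With hairpin b it was at 7.25, 6.94 and 6.84 at 0 Gy and 7.61, 7.4 and 7.59 at 5 Gy. In both treatments every irradiated array was above every unirradiated one, as for 448 and 662 of all 12419 genes. With the p53 shRNA it was at 6.59, 6.07 and 6.58 at 0 Gy and 6.66, 6.54 and 6.57 at 5 Gy. With both shRNAs it was at 6.42, 6.05 and 6.57 at 0 Gy and 6.47, 6.28 and 6.85 at 5 Gy. In p53-depleted cells the doses overlapped, and these arrays spanned 6.05 to 6.85, where the arrays without p53 shRNA spanned 6.84 to 7.88.

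The irradiation change of TRIM22 was 0.61 ± 0.17 on the log2 scale with the control shRNA, 0.52 ± 0.17 with hairpin b, 0.18 ± 0.17 with the p53 shRNA and 0.19 ± 0.17 with both. None of these 4 passed singly, with adjusted p-values of 0.24, 0.232, 1 and 1, and the average of 0.37 ± 0.09 did, with an adjusted p of 0.0213. The test of the difference itself, irradiation by p53 shRNA in cells without hairpin b, gave -0.43 ± 0.24 with an unadjusted p of 0.0928 and an adjusted p of 1. A smaller irradiation change in p53-depleted cells was not shown by this test. The same difference in cells with hairpin b was not tested. Each irradiation pair of arrays shared a bead chip. With the chip as a block, TRIM22 was called for the control shRNA (adjusted p 0.00732, beside 0.87% of all genes) and for hairpin b (adjusted p 0.0209, beside 1.8%). Same-numbered arrays deviated together in the other 3 irradiation comparisons, and the replicate number as a block called SAMD9 with hairpin b, with a fall of 0.44 ± 0.11 on the log2 scale and an adjusted p of 0.0498, against 0.104 without the block, where 1.74% of all genes passed. For irradiation with hairpin b, the chip as a block did not call SAMD9, and the replicate number as a block did not call TRIM22. In the averaged comparison the replicate number as a block called 5 genes in place of 3, beside 3.09% of all genes, adding TAP1 with 0.28 ± 0.05 and an adjusted p of 0.00125, and PSMB9 with 0.19 ± 0.05 and an adjusted p of 0.0458.

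The p53 shRNA lowered TRIM22 clearly at 5 Gy. The change was -1.02 ± 0.17 on the log2 scale, a fold change of 2.03, with an adjusted p of 0.00366 against the control shRNA, and -1 ± 0.17 with an adjusted p of 0.00744 in cells that also carried hairpin b. Fitted on the authors' deposited log2 values, the former change was -0.5 and still called. It was the 1 member of 44 that passed in each of these comparisons, or 2.27%, where 0.701% and 0.395% of all genes passed. At 0 Gy no member passed, beside 0.33% and 0.153% of all genes, and TRIM22 was lower by a log2 value of -0.59 ± 0.17 and -0.66 ± 0.17, with adjusted p-values of 0.311 and 0.243. The p53 shRNA arrays were below the control arrays without overlap in all 4 settings. Of all 12419 genes, 603 at 0 Gy and 779 at 5 Gy were below in this way. In the cells with hairpin b these counts were 745 and 497. With the replicate number as a block, which pairs the cells with hairpin b, the value at 0 Gy in those cells passed with an adjusted p of 0.0392, beside 0.411% of all genes. Within single bead chips the 5 Gy change was -1.22 and -0.93 against the control shRNA and -0.93 and -0.73 in the cells with hairpin b. The call in the cells with hairpin b was lost when only the 6 arrays compared were fitted (adjusted p 0.16) and when replicate 2 of the group with both shRNAs was left out (adjusted p 0.0757).

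Averaged over its 4 settings, the p53 shRNA lowered TRIM22 and SP110 and raised ISG20, which is 6.82% of the 44 genes beside 3.48% of all. TRIM22 changed by -0.82 ± 0.09 on the log2 scale with an adjusted p of 2.46e-06. SP110, a component of nuclear bodies, changed by -0.30 ± 0.07 with an adjusted p of 0.0199, and its other 3 probes by -0.22 to -0.33. At 5 Gy SP110 was at 10.48, 10.04 and 9.77 with the control shRNA and 9.7, 9.74 and 9.7 with the p53 shRNA. The 2 groups were apart, by a margin set by the third control array. In the cells with hairpin b at 5 Gy it was at 10.45, 10.14 and 10.3, and with both shRNAs at 9.87, 9.92 and 9.84, again without overlap. Of all 12419 genes, 779 and 497 were lower without overlap in these 2 comparisons. With the replicate number as a block 6 genes were called, TAP1 (-0.19 ± 0.05, adjusted p 0.0223), PARP9 (0.25 ± 0.07, adjusted p 0.0344) and MX2 (0.23 ± 0.07, adjusted p 0.046) being the added ones, beside 8.01% of all genes. MX2 was detected on only 6 of the 24 arrays. The irradiated and unirradiated changes that this average joins share the arrays of the single comparisons above and are not independent of them.

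**Figure D2:**
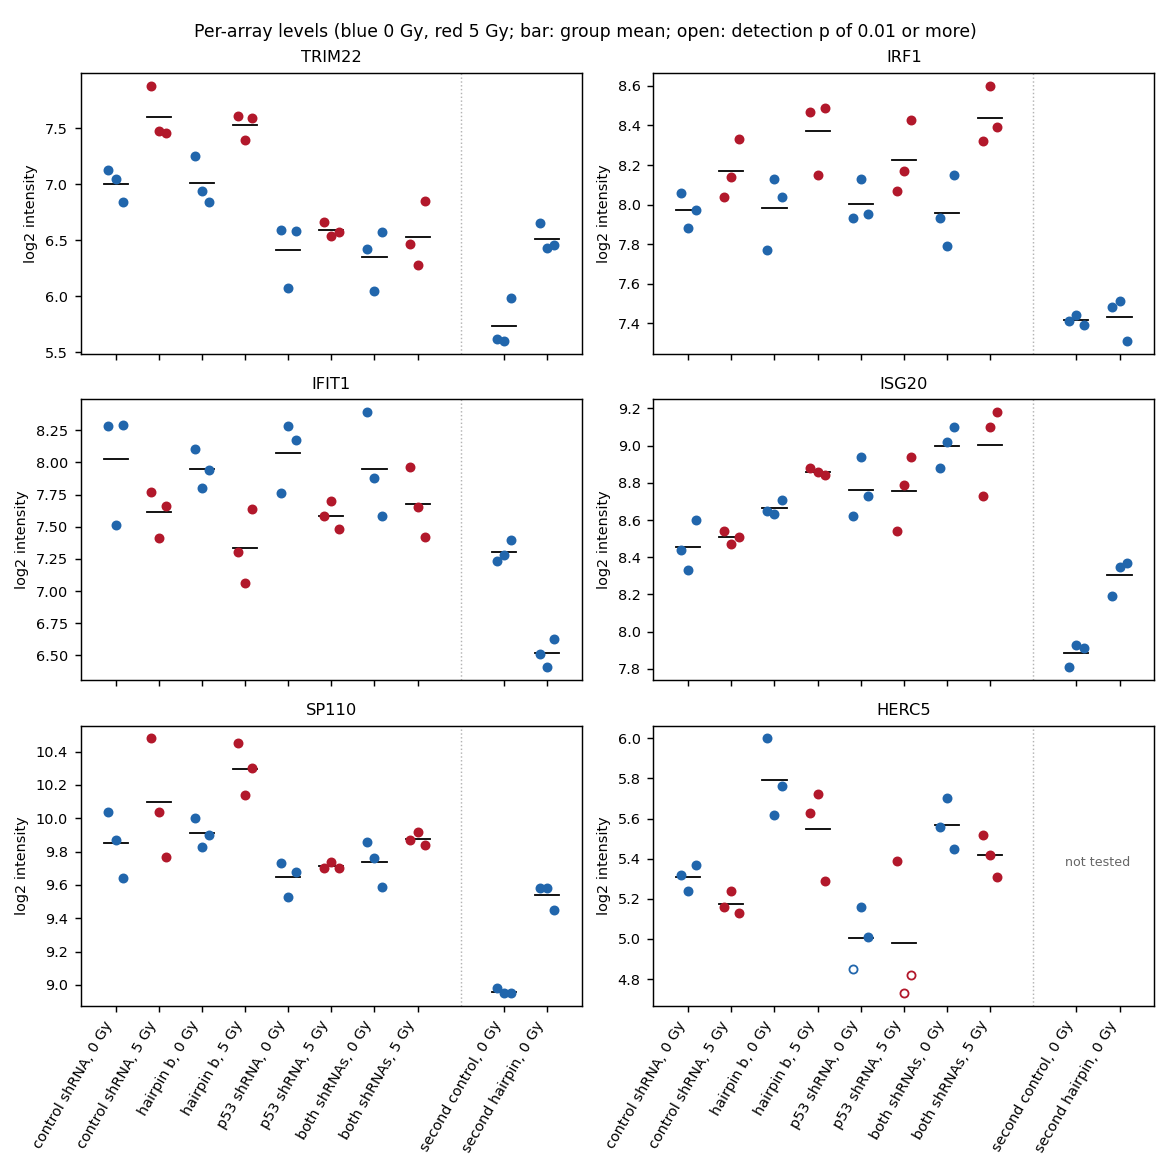
Log2 intensity (vertical axis) of TRIM22, IRF1, IFIT1, ISG20, SP110 and HERC5 on each array by group (horizontal axis), blue for 0 Gy and red for 5 Gy, with a bar at the group mean and open symbols for arrays with a detection p of 0.01 or more. TRIM22 lies at 6.05 to 6.85 in the 4 groups with p53 shRNA and at 6.84 to 7.88 in the 4 without, and HERC5 was not tested in the second experiment.

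Hairpin b was compared with the control shRNA to ask what depletion of NFBD1 does to expression. At 0 Gy it called no interferon-stimulated gene, beside 0.443% of all genes, and in p53-depleted cells it called none at 0 Gy (0.507% of all genes) or at 5 Gy (0.709%). At 5 Gy against the control shRNA it called 1 of the 44, or 2.27%, beside 1.16% of all genes. That gene was SAMD9, a cytoplasmic protein that restricts poxviruses. SAMD9 was at 7.94, 7.78 and 7.73 with the control shRNA and 7.25, 7.17 and 7.47 with hairpin b at 5 Gy. Its groups did not overlap, and 905 of all 12419 genes were lower in this way. The change was -0.52 ± 0.12 on the log2 scale with an adjusted p of 0.0244. The call was lost when only the 6 arrays compared were fitted, with an adjusted p of 0.388, and without replicate 1 or 2 of either group, where the adjusted p reached 0.148. With the replicate number as a block, which pairs these groups, PARP12 was called too, with -0.61 ± 0.13 and an adjusted p of 0.0117 against 0.114 without it, beside 2.53% of all genes.

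Averaged over its 4 settings, hairpin b raised HERC5 and ISG20, 4.55% of the 44 genes beside 5.66% of all, a share below the background. HERC5 is the main ligase that attaches ISG15 to new proteins. At 0 Gy HERC5 was at 5.32, 5.24 and 5.37 with the control shRNA and 6, 5.62 and 5.76 with hairpin b. At 5 Gy it was at 5.16, 5.24 and 5.13, and at 5.63, 5.72 and 5.29. All 6 arrays with hairpin b were above the control arrays of their dose. Of all 12419 genes, 778 at 0 Gy and 652 at 5 Gy were above in this way. In p53-depleted cells HERC5 was at 4.85, 5.16 and 5.01 at 0 Gy and 5.39, 4.73 and 4.82 at 5 Gy, of which 3 of 6 arrays were above background, and with both shRNAs at 5.56, 5.7 and 5.45, and at 5.52, 5.42 and 5.31. The averaged change of HERC5 was 0.46 ± 0.08 on the log2 scale, a fold change of 1.38 with an adjusted p of 0.000361, from changes of 0.48, 0.37, 0.56 and 0.44 in the 4 settings. Fitted on the authors' deposited log2 values, the change was 0.1 and called. It kept its call without any single one of the 24 arrays, with an adjusted p of at most 0.00109.

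ISG20, an exonuclease that degrades single-stranded RNA, rose on average with either shRNA. Its levels at 0 Gy were 8.44, 8.33 and 8.6 in the control group, 8.65, 8.63 and 8.71 in the hairpin b group and 8.62, 8.94 and 8.73 in the p53 shRNA group. With both shRNAs at 0 Gy they were 8.88, 9.02 and 9.1. Each depleted group was above the control group without overlap, as were 778, 436 and 1034 of all 12419 genes. The group with both shRNAs was above the group with hairpin b and overlapped the p53 shRNA group. Singly, hairpin b (0.21 ± 0.13) and the p53 shRNA (0.31 ± 0.13) did not pass at 0 Gy, each with an adjusted p of 0.999. At 5 Gy ISG20 was at 8.54, 8.47 and 8.51 in the control group, 8.88, 8.86 and 8.84 in the hairpin b group, 8.54, 8.79 and 8.94 in the p53 shRNA group and 8.73, 9.1 and 9.18 in the group with both. At this dose the group with both overlapped the hairpin b group and the p53 shRNA group. The average over 4 settings was 0.26 ± 0.06 on the log2 scale for hairpin b, with an adjusted p of 0.0141, and 0.26 ± 0.06 for the p53 shRNA, with an adjusted p of 0.0207. The 2 averages use the same arrays. Both shRNAs together against the control shRNA changed ISG20 by 0.54 ± 0.13 at 0 Gy with an adjusted p of 0.0391, the 1 member called there beside 0.926% of all genes, and by 0.50 ± 0.13 at 5 Gy with an adjusted p of 0.052.

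The call of ISG20 at 0 Gy with both shRNAs was lost when only the 6 arrays compared were fitted (adjusted p 0.117) and when any of 5 of the 6 arrays was left out (adjusted p up to 0.228). At 5 Gy the 1 member called with both shRNAs was TRIM22, with -1.07 ± 0.17 and an adjusted p of 0.00106, beside 1.44% of all genes. The replicate number as a block, which pairs these groups, called TRIM22 at 0 Gy too (-0.65 ± 0.14, adjusted p 0.0132), where 2.28% of all genes passed. At 5 Gy it called ISG20 (adjusted p 0.0119) and PSMB9 (0.44 ± 0.10, adjusted p 0.0176) besides TRIM22, where 3.87% of all genes passed. For hairpin b averaged over its settings the same block called 9 of the 44 genes, or 7 more, beside 11.1% of all genes. The added genes were PSMB9, IFI27, IFIH1, OAS1 and USP18, which were higher, and PARP12 and SAMD9, which were lower. USP18 was detected on only 4 of the 24 arrays. In p53-depleted cells at 5 Gy the block called IFI27, with 1.41 ± 0.30 and an adjusted p of 0.0142 against 0.557 without it, beside 1.78% of all genes.

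None of the 4 interaction tests called a member or any other gene (limma, 0% of 12419 genes). At an unadjusted p under 0.05, 4 of the 44 genes passed for irradiation by hairpin b (3.1% of all genes), 0 for irradiation by p53 shRNA (1.69%), 1 for hairpin b by p53 shRNA at 0 Gy (1.24%) and 2 at 5 Gy (2%). The smallest unadjusted p-values belonged to PARP14, a mono-ADP-ribosyltransferase, for irradiation by hairpin b (-0.61 ± 0.23, p 0.0152) and to SAMD9 for hairpin b by p53 shRNA at 5 Gy (0.43 ± 0.17, p 0.0165).

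In the second experiment 10 of the 40 genes tested changed with the second hairpin at 0 Gy, 4 upwards (13.6% of all genes) and 6 downwards (12.6%). This is 25% of them, close to the 26.2% of all 11040 genes that passed, and the median change was 0.04 on the log2 scale beside 0.01 over all genes. The members thus moved about as often as other genes did. The genes that rose were TRIM22, SP110, ISG20 and TAP1, and those that fell were IFIT1, OASL, PSMB9, UBE2L6, IFI44 and IFI44L.

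Among the genes that rose, TRIM22 was at 5.62, 5.6 and 5.98 with the second control and 6.65, 6.43 and 6.46 with the second hairpin. SP110 was at 8.98, 8.95 and 8.95, and then at 9.58, 9.58 and 9.45. ISG20 was at 7.81, 7.93 and 7.91, and then at 8.19, 8.35 and 8.37. None of these groups overlapped. Among the 40 genes, 6 were higher and 7 lower without overlap, beside 2407 and 2229 of all 11040 genes. TRIM22 changed by 0.78 ± 0.11 on the log2 scale with an adjusted p of 0.000907, SP110 by 0.58 ± 0.07 with an adjusted p of 0.000324 and ISG20 by 0.42 ± 0.08 with an adjusted p of 0.00343. All 3 other probes of SP110 rose as well, by 0.45 to 0.64. TAP1, a subunit of the transporter that carries peptides to class I molecules, was at 9.35, 9.22 and 9.39, and then at 9.72, 9.76 and 9.63, a change of 0.38 ± 0.07 with an adjusted p of 0.00465. CDKN1A stood at 11.66 ± 0.02 with the second control and 12.5 ± 0.08 with the second hairpin, and its part in the rise of TRIM22 was not tested.

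Among the genes that fell, IFIT1 was at 7.23, 7.28 and 7.4 with the second control and 6.51, 6.41 and 6.63 with the second hairpin. OASL, a relative of the oligoadenylate synthetases that enhances sensing by RIG-I, was at 5.23, 5.2 and 5.33, and then at 4.87, 4.8 and 4.85. These 2 genes were lower on every array with the hairpin, IFIT1 by a log2 change of -0.79 ± 0.08 with an adjusted p of 0.000158 and OASL by -0.41 ± 0.07 with an adjusted p of 0.00199. The further IFIT1 probe was lower by -0.18 with an unadjusted p of 0.098. IFI44 was at 7.13, 7.14 and 6.93, and then at 6.67, 6.69 and 6.89. IFI44L was at 5.38, 5.35 and 5.41, and then at 5.16, 4.97 and 5.1. Both were apart between the groups, IFI44 narrowly, with changes of -0.32 ± 0.09 (adjusted p 0.0251) and -0.31 ± 0.07 (adjusted p 0.012).

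UBE2L6, the conjugating enzyme for ISG15, was at 9.93, 10.09 and 10.09 with the second control and 9.78, 9.76 and 9.58 with the second hairpin. PSMB9, a catalytic subunit of the immunoproteasome, was at 7.8, 8.12 and 8.26, and then at 7.56, 7.59 and 7.8. The PSMB9 groups touched at their edge and those of UBE2L6 did not. UBE2L6 changed by -0.33 ± 0.08 on the log2 scale with an adjusted p of 0.0146, and PSMB9 by -0.40 ± 0.12 with an adjusted p of 0.0319. Both lost their call when the probes of a gene were averaged, since their other probes changed by -0.11 and -0.13. IFI44 and PSMB9 lost their call when any of 4 of the 6 arrays was left out and UBE2L6 when any of 3 was. TAP1 rose and PSMB9 fell although both serve class I presentation. ISG15 and MX1, which are often used as readouts of interferon, did not pass.

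**Figure D3:**
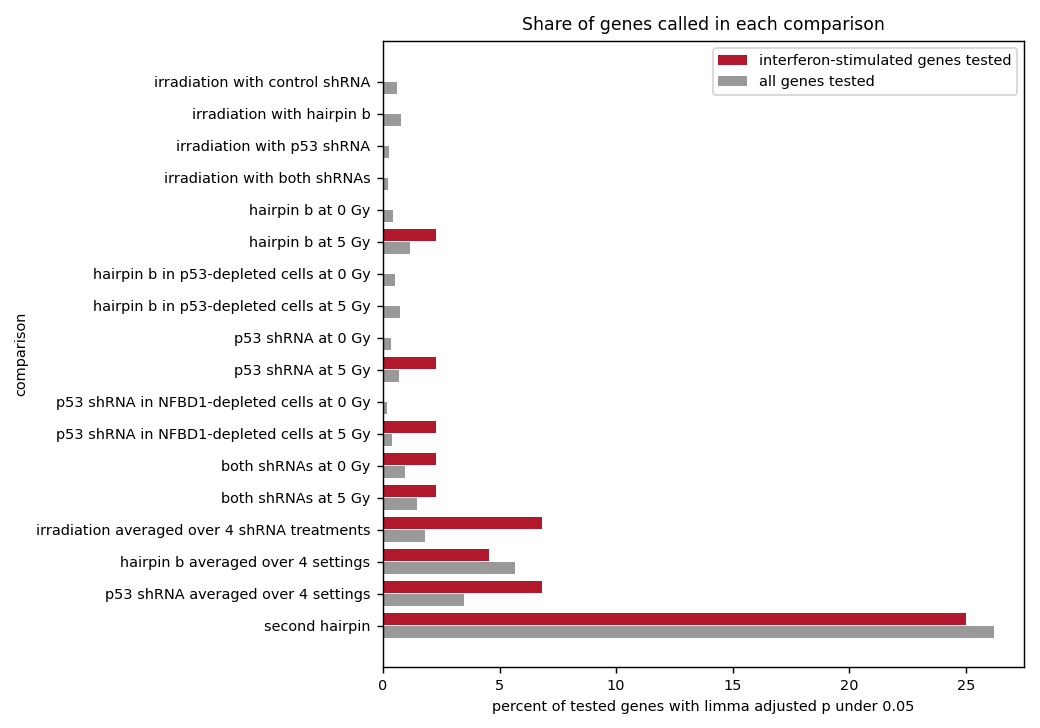
Percent of tested genes with a limma adjusted p under 0.05 (horizontal axis) in each comparison (vertical axis), red for the interferon-stimulated genes and grey for all genes. The red bars stand for at most 3 of 44 genes in the first experiment, and in the second experiment the bars are 25% and 26.2%.

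The 2 hairpins were run in separate experiments with separate controls, so the change of each against its own control was compared in a test added after the data were seen. Averaged over its 4 settings, hairpin b left TRIM22 at -0.05 ± 0.09 on the log2 scale, where the second hairpin had raised it by 0.78. The difference of the 2 changes was 0.83 ± 0.19 with an adjusted p of 0.00601. Differences for PSMB9 (-0.65 ± 0.19, adjusted p 0.0431) and UBE2L6 (-0.46 ± 0.14, adjusted p 0.0454) passed too, and both were lost with no detection filter and with the mean of probes, where the adjusted p reached 0.234 and 0.0717. This is 3 of 40 genes, or 7.5%, beside 6.34% of the 10910 genes tested in both experiments. Against hairpin b at 0 Gy alone none of the 40 passed, beside 2.58% of all, and the difference for TRIM22 was 0.77 ± 0.23 with an adjusted p of 0.0779. ISG20 was the 1 member called upwards with both hairpins, for hairpin b in the average over 4 settings. At 0 Gy alone its change with hairpin b was 0.21 ± 0.13 with an adjusted p of 0.999. HERC5, also raised by hairpin b on average, was not tested in the second experiment. Over all genes 13.6% rose with the second hairpin and 223 of 12419 with hairpin b on average. The overlap of these was not counted. The experiments differ in hairpin and in everything that was done separately, which cannot be told apart.

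**Figure D4:**
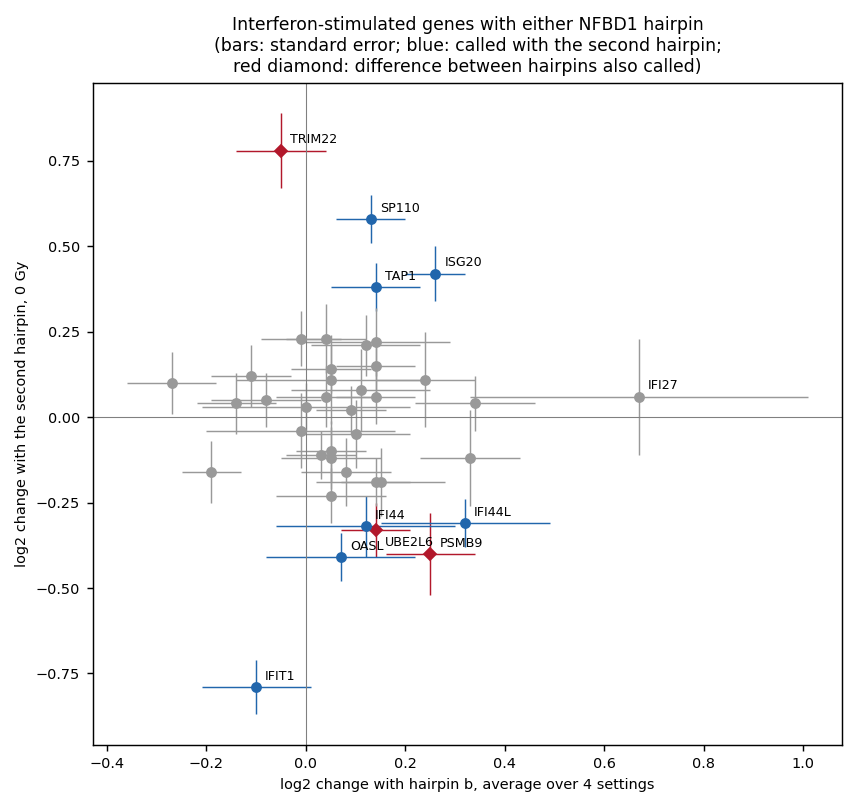
Log2 change with the second hairpin at 0 Gy (vertical axis) against log2 change with hairpin b averaged over 4 settings (horizontal axis) for the 40 genes tested in both experiments, with standard errors as bars, blue for genes called with the second hairpin and red diamonds where the difference between the hairpins was called as well. TRIM22 sits at 0.78 on the vertical and -0.05 on the horizontal axis, and ISG20 at 0.42 and 0.26.

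In the first experiment, several of the best known interferon-stimulated genes differed more between replicate numbers than between treatments. IFI27, a small mitochondrial protein, was at 6.73, 5.47 and 5.28 on the arrays numbered 1, 2 and 3 of the control shRNA at 0 Gy. With both shRNAs it was at 8.38, 5.67 and 5.28 at 0 Gy and 8.04, 5.62 and 5.89 at 5 Gy. IFIT2, a relative of IFIT1, was at 8.22, 7.11 and 6.89 with the control shRNA at 0 Gy. In each case the array numbered 1 stood above the other two. IFI27, IFIT2, IFIT3, IFI44 and TAP1 were highest on the array numbered 1 in all 8 groups, 5 of the 44 genes beside 1.21% of all 12419. The mean excess of number 1 over numbers 2 and 3 was 1.49 on the log2 scale for IFI27, with 0.87 to 2.9 across the groups. It was 0.87 for IFIT2, 0.75 for IFIT3, 0.73 for IFI44 and 0.29 for TAP1.

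Of the 44 genes, 35 were higher on number 1 than on the mean of the others, with a median of 0.17 beside 0 over all genes, and 4 exceeded 1.5-fold, beside 0.62% of all genes. This description was made after the data were seen and carries no test. For IFI44 78.1% of the variance lay between replicate numbers, for IFIT3 76.7%, for IFIT2 71.6%, for GBP1, a guanylate-binding GTPase, 68.6% and for IFI27 63.2%. TRIM22, ISG20 and SP110 went the other way, with 86.9%, 73.2% and 67.7% between the 8 groups. Over the 44 genes 38.6% had more variance between numbers than between groups, beside 32.6% of all genes. The median share between numbers was 25.3% for the 44 genes and 17.7% for all genes. Between groups it was 30.9% and 31.6%. The 2 kinds of share are not on a like scale, since they cover 3 numbers and 8 groups. With the control shRNA at 0 Gy, 37 of the 44 genes were above their group mean on number 1, 25 on number 2 and 10 on number 3. With both shRNAs at 0 Gy these counts were 36, 21 and 5.

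The arrays numbered 1 were on bead chip 1, except those with both shRNAs, which were on chip 2 together with number 2 of the control and hairpin b groups. IFI27 was high on the chip 2 arrays numbered 1 and not on those numbered 2, which were at 5.37 to 5.92. On this chip replicate number and shRNA treatment go together and cannot be told apart, and the part of the chip was not tested. Other transcripts moved in the same way: CXCL8, IL6, CCL20, CCL2 and CCL5, all chemokines or cytokines of the NF-kB list, were 1.55 to 2.91-fold higher on number 1, 5 of the 16 genes of that list. C1S, a complement protease gene of the list of further interferon-stimulated genes, was higher on number 1 by 0.85 on the log2 scale. C1S, IFITM3 of the same list and the osteoblast marker SPP1 (0.53) were highest on number 1 in all 8 groups. Epithelial and blood cell markers ranged from -0.39 to 0.39 in the same difference and none exceeded 1.5-fold. In the second experiment IFI27 was at 4.94, 5.64 and 5.6 with the control and 5.58, 5.27 and 5.53 with the hairpin, with number 1 the lowest and then the highest. The part of culture, RNA preparation or day in this pattern was not tested, since the labels give no such item.

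**Figure D5:**
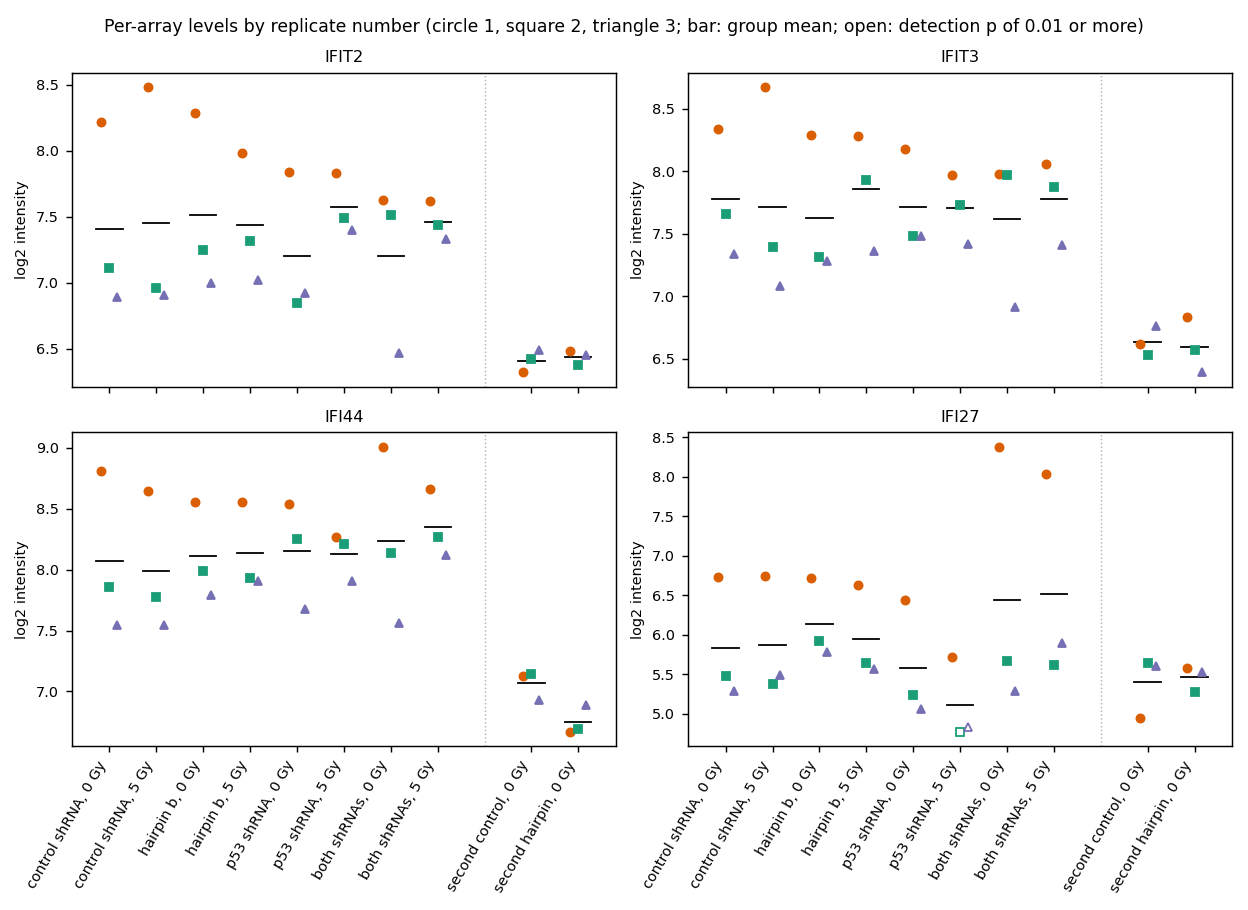
Log2 intensity (vertical axis) of IFIT2, IFIT3, IFI44 and IFI27 on each array by group (horizontal axis), with a circle for replicate number 1, a square for 2, a triangle for 3, a bar at the group mean and open symbols for a detection p of 0.01 or more. In all 8 groups of the first experiment the circle is the highest point, up to 8.38 for IFI27, while the circle of the second control group is the lowest IFI27 point of that group at 4.94.

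The genes around the interferon response were read from 5 lists. In the list of interferons, receptors and JAK-STAT components, 16 genes were tested in the first experiment. IFNAR1, a chain of the type I interferon receptor, fell with hairpin b at 5 Gy by -0.75 ± 0.14 on the log2 scale (adjusted p 0.00736) and on average by -0.52 ± 0.07 (adjusted p 3.49e-05), whereas it rose by 0.26 ± 0.07 with the second hairpin (adjusted p 0.019). SOCS1, the inhibitor of JAK kinases, rose by 0.50 ± 0.08 with the p53 shRNA on average (adjusted p 0.000788) and fell with the second hairpin by -0.44 ± 0.08 (adjusted p 0.00453). The other genes of this list did not pass in these averages or with the second hairpin. With hairpin b 1 of the 16 passed at 5 Gy, beside 1.16% of all genes, and 1 on average, beside 5.66%. With the p53 shRNA 1 passed on average, beside 3.48%. Of 14 genes tested with the second hairpin 1 rose and 1 fell, beside 13.6% and 12.6% of all genes.

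Of 22 genes that sense nucleic acids upstream of interferon, TRAF3, an adaptor between the sensors and TBK1, fell with hairpin b on average by -0.51 ± 0.06 (adjusted p 1.07e-05). IRF8, a transcription factor of the IRF family, rose with hairpin b by 0.28 ± 0.05 on average (adjusted p 0.00201). TLR3, the receptor for double-stranded RNA and a known p53 target, rose by 0.27 ± 0.07 with irradiation on average (adjusted p 0.0497). For hairpin b 1 of the 22 rose and 1 fell on average, beside 5.66% of all genes called. For irradiation 1 rose, beside 1.8%. With the second hairpin 3 of 21 rose and 4 fell, where 13.6% of all genes rose and 12.6% fell. RNASEH2A and RNASEH2B, subunits of an enzyme that removes RNA from DNA, fell by -0.38 ± 0.07 and -0.47 ± 0.09, and STING1, the adaptor of cGAS, rose by 0.36 ± 0.06.

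Of 37 further interferon-stimulated genes outside the set, RNF213 (-0.63 ± 0.08, adjusted p 8.39e-06) and NMI (-0.67 ± 0.10, adjusted p 0.000121) fell with hairpin b on average. B4GALT5 fell with the p53 shRNA (-0.53 ± 0.07, adjusted p 7.64e-05), and ZC3HAV1, an antiviral RNA-binding protein, rose with irradiation (0.22 ± 0.05, adjusted p 0.0176). In these averages 2 of the 37 passed for hairpin b, 1 for the p53 shRNA and 1 for irradiation. Over all genes 5.66%, 3.48% and 1.8% passed. With the second hairpin 4 of 32 rose and 5 fell, again beside 13.6% and 12.6% of all genes, the smallest adjusted p-values being those of CASP1 (-0.96 ± 0.08) and CD274, the ligand of PD-1 (0.97 ± 0.09). Of 15 class I genes, CANX fell with hairpin b on average (-0.23 ± 0.07, adjusted p 0.0462) and TAP2, the partner of TAP1, rose with the p53 shRNA (0.29 ± 0.08, adjusted p 0.0396). Each was 1 of 15, beside 5.66% and 3.48% of all genes. With the second hairpin HLA-E, TAPBP, TAP2 and HLA-B rose and CANX fell, 5 of 15 beside 26.2% of all genes.

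The NF-kB and inflammatory list showed the largest count with the second hairpin, with 12 of 16 up, 1 down and a median of 0.43 on the log2 scale, beside 13.6% up, 12.6% down and a median of 0.01 over all genes. CXCL8 rose by 2.37 ± 0.10 and SOD2 by 0.85 ± 0.07, and PTGS2 fell by -0.51 ± 0.11. With hairpin b on average 1 of 16 rose, PTGS2 (0.40 ± 0.11, adjusted p 0.0283), and 1 fell, CCL2 (-0.72 ± 0.17, adjusted p 0.0105), where 5.66% of all genes passed. Marker lists moved with the second hairpin too. Of 5 blood cell markers tested, CD68 rose by 1.01 ± 0.07 and CD3D by 1.24 ± 0.11, beside 13.6% of all genes. The others were not called, and the median change of the 5 was -0.05 on the log2 scale. The summed signal of the 5 was 449 to 494.9 with the control and 844.9 to 901 with the hairpin. Of 8 osteoblast or mesenchymal markers, ALPL and SPP1 rose and CDH2, COL1A1 and RUNX2 fell. Of 2 epithelial markers CDH1 rose by 0.53 ± 0.07, and of 2 neural markers both fell. These counts too stand beside 13.6% of all genes up and 12.6% down. Their part in the changes of the interferon-stimulated genes was not tested.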

How the data were processed

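Total RNA of 30 samples was read on Illumina bead arrays of 48802 probes. The deposited table holds, per the file headers, 1 signal intensity and 1 detection p-value per probe and array, not normalized by the authors; 60 further columns of per-array values were not used. The authors' deposited value table holds log2 values with the same distribution and a median of 6.951 on every array, made by a method not given in the sources used here, and served as an alternative. Gene names come from the platform annotation, which gave 27577 probes 1 symbol, 13 several and 21212 none; 27540 probes were matched to RefSeq genes.

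Within each experiment, intensities were background-corrected, quantile-normalized and log2-transformed with neqc (limma 3.58.1 in R 4.3.3, offset 16, negative controls inferred from the detection p-values). Probes with a detection p under 0.01 on at least 3 arrays were kept (21568 and 17975), and a gene was read from its brightest kept probe. Group means were fitted over all groups of an experiment with lmFit and eBayes (16 and 4 residual degrees of freedom), p-values were adjusted over all genes by Benjamini and Hochberg, and an adjusted p under 0.05 was called. Averages join the 4 single contrasts. The number of arrays limits the precision.

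Same-numbered arrays deviated together (median correlation 0.32, against -0.18 for other numbers), which pairs all comparisons of the first experiment except irradiation with the control shRNA and the p53 shRNA against the control shRNA; in the second experiment the median was -0.04. Alternatives were the replicate number or the chip as a block, other background, filter and probe rules, only the arrays compared, the authors' values and each array left out. Full values are given for members called in any comparison, for the smallest p where none was called, and for up to 4 called genes of each list. The genes and lists were chosen with earlier results of these data known. Promoter sequences are RefSeq's on GRCh38.p14.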

Additional observations from a re-analysis of the deposited data

Results flagged for a closer look

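By a test of the difference itself, the changes of 3 of 40 genes differed between the 2 NFBD1 hairpins. Over all 10910 genes tested in both experiments, 6.34% passed. The test was added after the data were seen. The second hairpin minus hairpin b averaged over its 4 settings was 0.83 (SE 0.19) for TRIM22, with an adjusted p of 0.00601, -0.65 (SE 0.19) for PSMB9, with an adjusted p of 0.0431, and -0.46 (SE 0.14) for UBE2L6, with an adjusted p of 0.0454. Leaving out single arrays never ended the call of TRIM22 in 30 refits, and ended that of PSMB9 in 12 and that of UBE2L6 in 20. The calls of PSMB9 and UBE2L6 also ended with no detection filter and with the mean of probes, at an adjusted p of up to 0.234 and 0.0717. The TRIM22 difference kept its call under the 7 alternatives that keep all arrays, where it ran from 0.37, with the authors' processed values, to 0.85. The average of hairpin b also joins irradiated and p53-depleted settings, which the second hairpin lacks. Against hairpin b at 0 Gy alone none of the 40 genes passed, beside 2.58% of all genes. There TRIM22 had an adjusted p of 0.0779. The hairpins were run in separate experiments, so hairpin and experiment cannot be told apart.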

How the results depend on the processing

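No count or named change reversed its direction under any alternative run. Counts of called interferon-stimulated genes that moved are these, and the cause was not tested beyond the fewer arrays in the fits of only the arrays compared. With the replicate number as a block they were 1 for irradiation with the control shRNA, 1 with hairpin b, 2 for hairpin b at 5 Gy, 1 for hairpin b in p53-depleted cells at 5 Gy, 1 for the p53 shRNA in NFBD1-depleted cells at 0 Gy, 2 and 3 for both shRNAs at 0 and 5 Gy, 5, 9 and 6 for the averages of irradiation, hairpin b and p53 shRNA, and 2 and 5 for the differences between hairpins at 0 Gy and averaged; this block changed no other call. With the chip as a block they were 1 for irradiation with the control shRNA, 1 with hairpin b, 1 for the p53 shRNA at 0 Gy, 2 in NFBD1-depleted cells at 5 Gy, 3 and 3 for both shRNAs at 0 and 5 Gy, 6 and 7 for the averages of hairpin b and p53 shRNA, and 3 and 5 for the differences between hairpins. Under these blocks the share of all genes called rose as well, where it was read. With the replicate number it went from 1.8% to 3.09% for irradiation averaged. It went from 5.66% to 11.1% for hairpin b averaged and from 3.48% to 8.01% for the p53 shRNA averaged. With the chip it went from 0.588% to 0.87% for irradiation with the control shRNA and from 0.757% to 1.8% with hairpin b. With only the arrays compared, the counts of members were 0 for hairpin b at 5 Gy, for the p53 shRNA in NFBD1-depleted cells at 5 Gy and for both shRNAs at 0 Gy. For both shRNAs at 5 Gy, 2 were called with the authors' values, no background correction, no filter, a filter of 6 arrays or the mean of probes, and the mean of probes gave 4 for hairpin b averaged and 1 for the hairpin difference at 0 Gy. With single arrays left out, counts ran from 0 to 1 for hairpin b at 5 Gy, the p53 shRNA in NFBD1-depleted cells at 5 Gy, both shRNAs at 0 Gy and the hairpin difference at 0 Gy, from 1 to 2 for both shRNAs at 5 Gy, from 2 to 3 for the averages of irradiation and of hairpin b, from 3 to 4 for that of the p53 shRNA, from 7 to 11 for the second hairpin and from 1 to 4 for the averaged hairpin difference.

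TRIM22 kept its call for the p53 shRNA at 5 Gy in all alternatives run, and SP110, ISG20 and HERC5 kept theirs in the averages. IFI44L lost its call with the second hairpin under the authors' values (adjusted p 0.101). Signal over background limits OASL, USP18, MX2 and IRF7, which were detected on 4 to 8 of the 24 arrays. Fitted on the authors' log2 values, several called changes were over 1.5 times smaller, among them those of TRIM22 for the p53 shRNA averaged (-0.37), irradiation averaged (0.18) and the second hairpin (0.34), and those of IFIT1 (-0.46) and OASL (-0.13) for the second hairpin.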
